A study of Mus musculus with 6 samples.

Results

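The 9 genes described here mark the oligodendrocyte lineage: the myelin sheath genes *Mbp*, *Mog*, *Mag*, *Mobp*, and *Cnp*, the precursor surface genes *Pdgfra* and *Cspg4*, and the transcription factor genes *Olig2* and *Sox10*. They were chosen by symbol and not by a threshold on their values, although earlier results of these data were known. All 9 were among the 14477 genes with deposited values. RNA-Seq was done on hippocampal tissue of 3 Phf21bΔ4/Δ4 mice and 3 Phf21b+/+ mice, at baseline and with no treatment. Phf21bΔ4/Δ4 mice are homozygous for a CRISPR deletion in exon 4 of *Phf21b*, a gene for a PHD finger protein, and the Phf21b+/+ mice were wild-type littermates on the same C57BL/6J background. The deletion is in every cell of the body and so is not restricted to oligodendrocytes, and neither the sex nor the exact age of these 6 mice is given in the labels. In general the study used young adults of both sexes, aged 2 to 6 months. Levels are CPM, that is reads scaled by the size of each library, unless a log2 scale is named. Values listed for Phf21bΔ4/Δ4 mice are those of replicates 2, 3, and 6 in that order, and values for Phf21b+/+ mice are those of replicates 5, 7, and 8.

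Oligodendrocyte precursors carry the PDGF receptor encoded by *Pdgfra* and the proteoglycan encoded by *Cspg4*, and they lose both as they differentiate. OLIG2 and SOX10 are present through the lineage, and SOX10 together with the regulator MYRF switches on myelin genes. Mature oligodendrocytes wrap axons in myelin, whose compact layers are held together by basic proteins such as MBP.

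Because SOX proteins bind a short core in DNA, the bases just upstream of the genes were searched for ACAAAG or ACAATG on both strands. RefSeq windows of 250 bases before a transcript start (GRCm38.p6) were present for 7 of the 9 genes. The windows of 4 genes are shown, all on the plus strand and up to the first annotated GENCODE start, for the myelin genes with the largest and the smallest genotype difference and for the 2 precursor genes. Capitals mark the SOX core or its reverse complement (CTTTGT or CATTGT). They come from chr9:120149492-120149706 for *Mobp*, chr11:100574689-100574903 for *Cnp*, chr5:75152001-75152250 for *Pdgfra*, and chr9:56864854-56865032 for *Cspg4*.
Mobp: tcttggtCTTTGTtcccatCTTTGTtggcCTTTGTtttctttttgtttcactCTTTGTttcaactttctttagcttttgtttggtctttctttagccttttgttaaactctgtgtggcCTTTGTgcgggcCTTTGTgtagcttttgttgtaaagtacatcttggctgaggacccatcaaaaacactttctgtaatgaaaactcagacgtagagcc
Cnp: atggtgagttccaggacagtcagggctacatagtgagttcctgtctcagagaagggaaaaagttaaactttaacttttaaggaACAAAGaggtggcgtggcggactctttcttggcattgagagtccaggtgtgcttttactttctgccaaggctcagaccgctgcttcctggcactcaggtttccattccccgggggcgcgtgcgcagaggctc
Pdgfra: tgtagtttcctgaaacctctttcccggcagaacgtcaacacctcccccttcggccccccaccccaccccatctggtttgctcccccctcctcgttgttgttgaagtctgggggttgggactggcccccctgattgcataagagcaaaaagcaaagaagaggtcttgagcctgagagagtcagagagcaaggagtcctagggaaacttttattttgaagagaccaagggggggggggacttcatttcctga
Cspg4: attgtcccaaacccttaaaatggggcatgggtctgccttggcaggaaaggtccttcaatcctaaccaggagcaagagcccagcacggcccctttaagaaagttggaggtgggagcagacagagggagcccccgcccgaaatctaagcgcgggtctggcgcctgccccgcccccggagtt

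The *Mobp* window held 6 SOX cores, more than any other of the 32851 RefSeq windows searched, of which 25.2% held at least 1 and 0.493% held at least 3. All 6 in *Mobp* were the same CTTTGT, set in a stretch rich in T. *Cnp* had 1 core and *Mag* had 1 in its first window, whereas *Pdgfra*, *Cspg4*, and *Mog* had 0. The single core in the *Olig2* window lay downstream of the first annotated start. E-boxes (CANNTG), the short sequence that OLIG2 and many other factors bind, were in 66.2% of all windows, and the *Mobp*, *Mog*, *Cspg4*, and *Olig2* windows had none. These counts describe letters in a short window and say nothing about binding in these mice.

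The label check came first. *Phf21b* had 2.15, 3.57, and 3.87 CPM in Phf21bΔ4/Δ4 mice and 6.50, 5.23, and 6.47 CPM in Phf21b+/+ mice. All Phf21bΔ4/Δ4 values were below all Phf21b+/+ values, although the gene did not pass the threshold (log2 change -0.96 ± 0.26 SE, limma false discovery rate [FDR] 0.141). Of all genes, 16.0% were lower without overlap in the same way, so the check is a weak one. The libraries held 20495605 to 24881257 reads in listed genes. The 9 genes had between 370 and 82872 reads in any mouse, so depth did not limit any of them.

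Per kilobase of annotated exon, which allows genes of different length to be compared, the sheath genes stood far above the precursor and transcription factor genes. In Phf21b+/+ mice the level was 364 ± 75.2 CPM per kb for *Mbp*, 246 ± 61.2 for *Mobp*, 141 ± 10.7 for *Cnp*, 61.4 ± 2.13 for *Mag*, and 56.1 ± 4.53 for *Mog* (SD, n = 3 each). *Sox10* followed at 10.2 ± 0.326 CPM per kb, then *Pdgfra* at 8.39 ± 0.695, *Olig2* at 7.97 ± 0.326, and *Cspg4* at 1.45 ± 0.143. The ranges of *Mbp* and *Mobp* overlapped, as did those of *Pdgfra* and *Olig2*, so those neighbors were not separated by their spread. In Phf21bΔ4/Δ4 mice *Pdgfra*, at 11.1 ± 1.64 CPM per kb, ranked above *Sox10*, at 10.1 ± 1.85, and it also did in Phf21b+/+ mice when levels were divided by the longest annotated transcript.

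None of the 9 genes passed the threshold for a genotype difference (FDR under 0.1 and a fold change above 1.3, limma on the deposited log2 values with Benjamini-Hochberg adjustment over all genes), where 1.22% of all genes did (0.553% higher and 0.663% lower in Phf21bΔ4/Δ4 mice). Limma with voom weights on reads recovered from the values also called 0 of the 9. At an unadjusted p under 0.05 both tools counted 2 of the 9 genes, *Pdgfra* and *Cspg4*, both higher in Phf21bΔ4/Δ4 mice, and by limma on the deposited values 23.6% of all genes were past that p and 11.6% were so in the higher direction. The values of the genotypes did not overlap for 1 of the 9, *Pdgfra*, compared with 31.0% of all genes. The median log2 change was -0.0076 over the 9 genes and -0.019 over all genes. In whole tissue, fewer cells of a type and less RNA per cell cannot be told apart.

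**Figure D1:**
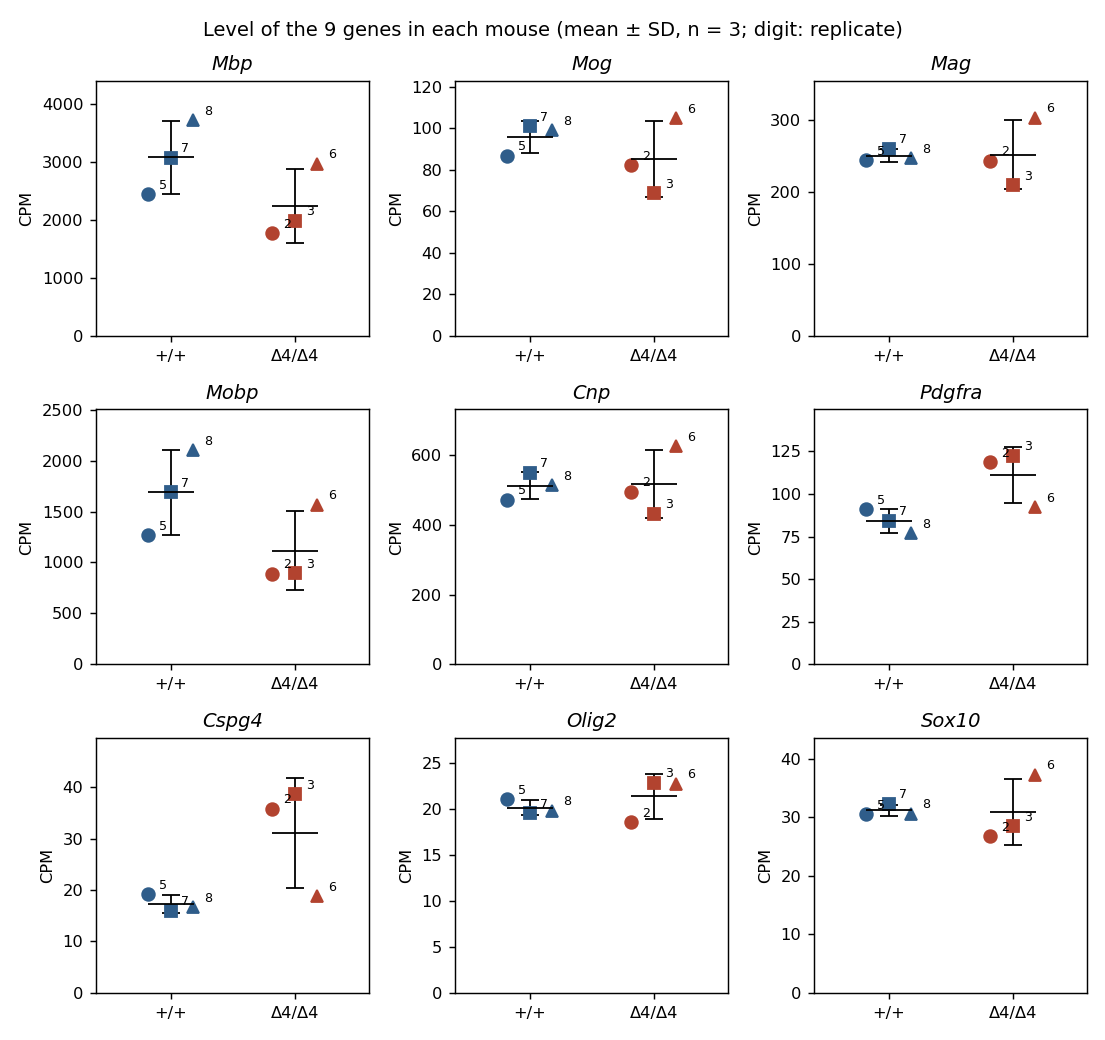
Level of each of the 9 genes in CPM (linear axis from 0) in the 3 Phf21b+/+ mice (blue) and the 3 Phf21bΔ4/Δ4 mice (red), with the replicate number beside each point and the mean ± SD in black. Phf21bΔ4/Δ4 replicates 2 and 3 lay low for *Mbp* and *Mobp* and high for *Pdgfra* and *Cspg4*, and Phf21bΔ4/Δ4 replicate 6 lay nearer the Phf21b+/+ mice for these 4 genes.

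Of the sheath genes, those for the basic proteins of compact myelin had the largest estimates. *Mobp*, which encodes myelin-associated oligodendrocyte basic protein (chromosome 9, 120149707 to 120181484, GRCm38), had 889, 894, and 1568 CPM in Phf21bΔ4/Δ4 mice and 1265, 1692, and 2103 CPM in Phf21b+/+ mice. Phf21bΔ4/Δ4 replicates 2 and 3 were below every Phf21b+/+ mouse, and replicate 6 lay between Phf21b+/+ replicates 5 and 7. The log2 change was -0.62 ± 0.28 (SE; 95% interval -1.29 to 0.05; limma FDR 0.234; exact permutation p = 0.2, 2-sided). With 3 mice against 3 the smallest exact p is 0.1.

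*Mbp*, which encodes the basic protein that seals the inner faces of the myelin membrane (chromosome 18, 82475146 to 82585637), had 1772, 1993, and 2980 CPM in Phf21bΔ4/Δ4 mice. Phf21b+/+ mice had 2450, 3082, and 3725 CPM. The same 2 Phf21bΔ4/Δ4 mice were below all Phf21b+/+ mice, and replicate 6 again lay within the Phf21b+/+ range. The log2 change was -0.47 ± 0.25 (95% interval -1.07 to 0.12; limma FDR 0.286; exact permutation p = 0.2). The *Mbp* locus also encodes golli transcripts made outside mature oligodendrocytes, which gene-level values do not separate.

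*Mog*, whose protein sits on the outermost layer of the sheath (chromosome 17, 37010743 to 37023398), had 82.1, 68.8, and 104.8 CPM in Phf21bΔ4/Δ4 mice and 86.7, 100.9, and 98.9 CPM in Phf21b+/+ mice. The genotypes overlapped because Phf21bΔ4/Δ4 replicate 6 was the highest of the 6 mice. The log2 change was -0.18 ± 0.16 (limma FDR 0.481).

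*Mag*, whose protein holds the innermost layer to the axon (chromosome 7, 30899176 to 30914873), had 243, 209, and 303 CPM in Phf21bΔ4/Δ4 mice and 244, 260, and 247 CPM in Phf21b+/+ mice. *Cnp*, which encodes a cyclic nucleotide phosphodiesterase of uncompacted myelin (chromosome 11, 100574904 to 100591729), had 494, 431, and 624 CPM in Phf21bΔ4/Δ4 mice and 472, 549, and 513 CPM in Phf21b+/+ mice. For both genes the Phf21bΔ4/Δ4 mice spread to either side of the Phf21b+/+ mice. The log2 changes were -0.01 ± 0.14 for *Mag* (95% interval -0.33 to 0.32; limma FDR 0.975) and 0.00 ± 0.15 for *Cnp* (95% interval -0.35 to 0.35; limma FDR 0.999), and both signs turned under other settings. *Cnp* overlaps *Dnajc7* on the other strand, and whether the counting used strand is not given in the sources used here.

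Phf21bΔ4/Δ4 mice were unlike each other in the sheath genes. Replicate 2 was below every Phf21b+/+ mouse in 4 of 5, replicate 3 in 5 of 5, and replicate 6 in 0 of 5, while replicate 6 was above every Phf21b+/+ mouse in 3 of 5. Over all genes, the shares below every Phf21b+/+ mouse were 38.0%, 39.3%, and 31.9%, and 30.4% of genes in replicate 6 were above every Phf21b+/+ mouse. The 2 precursor genes were above every Phf21b+/+ mouse in 2 of 2 in replicates 2 and 3 and in 1 of 2 in replicate 6, where 34.9%, 37.7%, and 30.4% of all genes were. Summed over the 5 sheath genes, Phf21bΔ4/Δ4 mice had 3480, 3597, and 5579 CPM and Phf21b+/+ mice 4517, 5684, and 6687 CPM. In every mouse most of this sum was *Mbp* and *Mobp*, so it mainly restates those genes.

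The sheath genes were also set against *Cnp* in the same mouse, a comparison made after the values were seen and given as a description. The log2 level of *Mobp* relative to *Cnp* was 0.85, 1.05, and 1.33 in Phf21bΔ4/Δ4 mice and 1.42, 1.62, and 2.04 in Phf21b+/+ mice. That of *Mbp* was 1.84, 2.21, and 2.26 in Phf21bΔ4/Δ4 mice and 2.38, 2.49, and 2.86 in Phf21b+/+ mice. On this scale all 3 Phf21bΔ4/Δ4 mice, replicate 6 included, were below all Phf21b+/+ mice for both basic protein genes. *Cnp* itself was higher in replicate 6 than in any other mouse, which lowers the relative level of every gene there. *Mog* also did not overlap, at -2.59, -2.65, and -2.57 against -2.44, -2.44, and -2.37. *Mag* overlapped, with means of -1.04 ± 0.012 in Phf21bΔ4/Δ4 mice and -1.03 ± 0.066 in Phf21b+/+ mice (SD, n = 3 each). So did *Mal* (0.078 ± 0.040 and 0.080 ± 0.15), which encodes a raft protein of myelin. Of all other genes set against *Cnp* in this way, 13.5% had every Phf21bΔ4/Δ4 value below every Phf21b+/+ value.

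**Figure D2:**
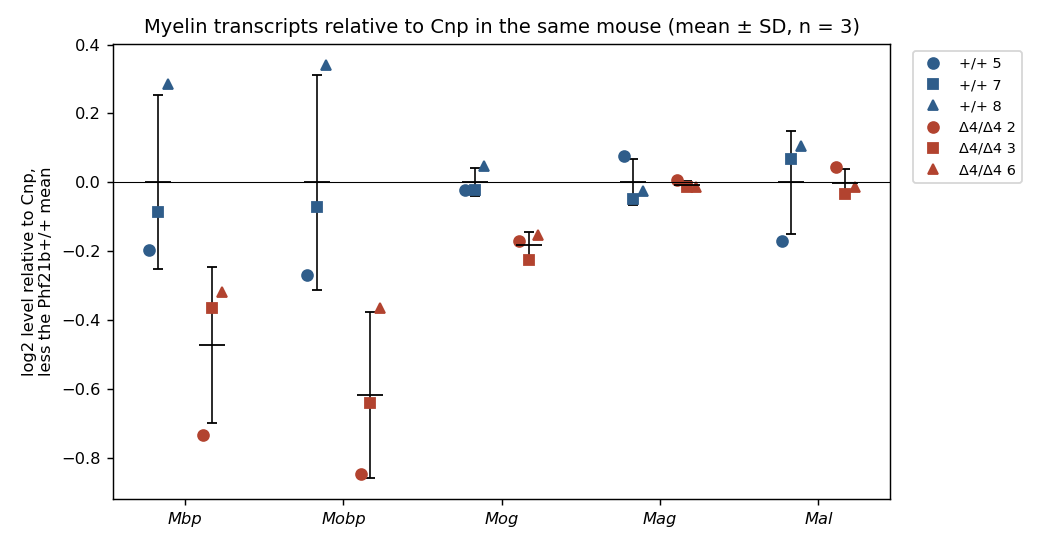
Log2 level of 5 myelin genes relative to *Cnp* in the same mouse, less the Phf21b+/+ mean, for Phf21b+/+ mice (blue) and Phf21bΔ4/Δ4 mice (red), with mean ± SD in black. The 3 Phf21bΔ4/Δ4 mice lie below the 3 Phf21b+/+ mice for *Mbp*, *Mobp*, and *Mog*, and the genotypes overlap for *Mag* and *Mal*.

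The precursor genes lay in the other direction. *Pdgfra*, which encodes the receptor through which PDGF drives precursor division (chromosome 5, 75152292 to 75198215), had 118, 122, and 92.1 CPM in Phf21bΔ4/Δ4 mice and 90.9, 84.3, and 77.0 CPM in Phf21b+/+ mice. All Phf21bΔ4/Δ4 values were above all Phf21b+/+ values, but replicate 6 exceeded Phf21b+/+ replicate 5 only narrowly. The level was 1.31-fold that of Phf21b+/+ mice (95% interval 1.06 to 1.62), with a log2 change of 0.39 ± 0.13 (unadjusted p = 0.0191 and FDR 0.164 by limma; exact permutation p = 0.1, the smallest possible).

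*Cspg4*, which encodes the NG2 proteoglycan of precursors and also of pericytes (chromosome 9, 56865033 to 56899870), had 35.8, 38.6, and 18.8 CPM in Phf21bΔ4/Δ4 mice and 19.2, 16.0, and 16.6 CPM in Phf21b+/+ mice. Phf21bΔ4/Δ4 replicates 2 and 3 were well above the rest, and replicate 6 was below Phf21b+/+ replicate 5. The level was 1.72-fold that of Phf21b+/+ mice (95% interval 1.10 to 2.69), with a log2 change of 0.78 ± 0.27 (unadjusted p = 0.0244 and FDR 0.169 by limma; exact permutation p = 0.2).

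The 2 transcription factor genes had log2 changes on either side of 0. *Olig2*, needed to specify the lineage (chromosome 16, 91225457 to 91228677), had 18.6, 22.9, and 22.8 CPM in Phf21bΔ4/Δ4 mice and 21.1, 19.6, and 19.8 CPM in Phf21b+/+ mice. *Sox10*, needed for terminal differentiation (chromosome 15, 79154908 to 79165240), had 26.8, 28.5, and 37.3 CPM in Phf21bΔ4/Δ4 mice and 30.6, 32.3, and 30.7 CPM in Phf21b+/+ mice. In both genes Phf21bΔ4/Δ4 mice lay on either side of a narrow Phf21b+/+ range. The log2 changes were 0.08 ± 0.11 for *Olig2* (95% interval -0.19 to 0.34; limma FDR 0.668) and -0.03 ± 0.13 for *Sox10* (95% interval -0.35 to 0.29; limma FDR 0.899), so neither interval reached a change of 0.5 on the log2 scale in either direction. Both signs turned under other settings.

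**Figure D3:**
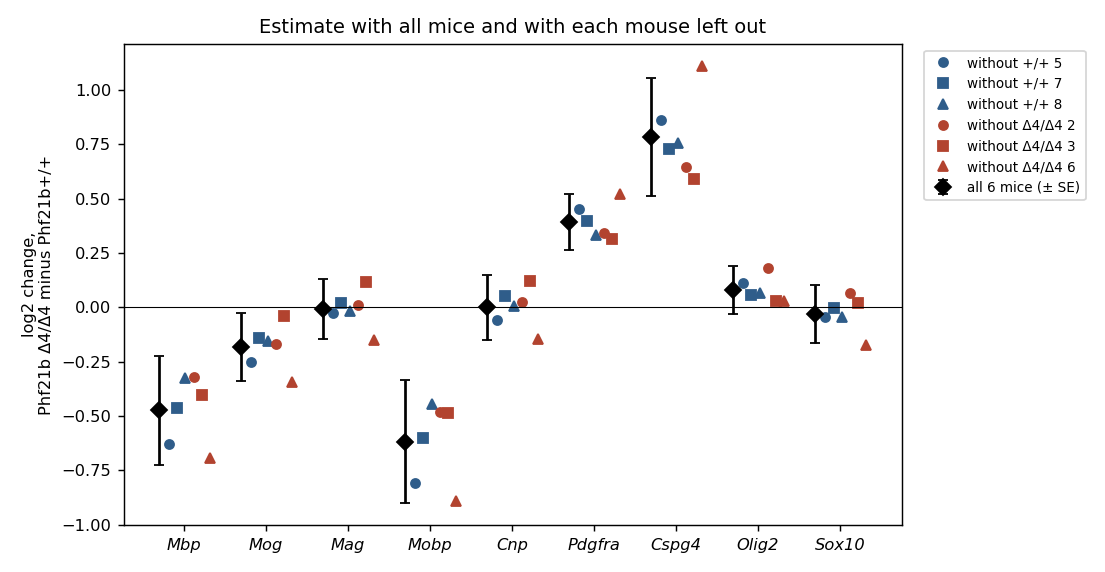
Log2 change of each of the 9 genes (Phf21bΔ4/Δ4 minus Phf21b+/+) with all 6 mice (black diamond ± SE) and with 1 mouse left out at a time (blue, a Phf21b+/+ mouse; red, a Phf21bΔ4/Δ4 mouse). Leaving out Phf21bΔ4/Δ4 replicate 6 (red triangle) gave the estimate farthest from 0 for every gene except *Olig2*.

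The count of calls depended on 1 mouse. Without Phf21bΔ4/Δ4 replicate 6, 4 of the 9 genes passed the threshold, against 19.5% of all genes: *Mbp* (log2 change -0.69, limma FDR 0.084) and *Mobp* (-0.89, FDR 0.055) were lower, and *Pdgfra* (0.52, FDR 0.028) and *Cspg4* (1.11, FDR 0.011) were higher. Weighting the mice by how well they fitted (limma arrayWeights) called the same 4 genes, against 24.5% of all genes. That fit changed the part of other mice too. Phf21bΔ4/Δ4 replicates 2, 3, and 6 had weights of 2.04, 0.55, and 0.34. Phf21b+/+ replicates 5, 7, and 8 had weights of 1.01, 0.55, and 4.63, so replicate 8 counted most. No reason to leave out Phf21bΔ4/Δ4 replicate 6 is given in the labels.

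The comparison was widened to 67 other lineage genes, from junction proteins to precursor markers, all of which had deposited values. None passed the threshold with all 6 mice by limma on the deposited values or with voom. At an unadjusted p under 0.05 there were 2 higher and 11 lower in Phf21bΔ4/Δ4 mice, against 11.6% and 12% of all genes. The genotypes did not overlap in 8 of the 67, against 31.0% of all genes. In 2 of these Phf21bΔ4/Δ4 mice were above and in 6 below, against 15.0% and 16.0% of all genes. The median log2 change of the 67 was -0.22, and 50 estimates were below 0 and 17 above, where over all genes 7593 were below and 6884 above. Without Phf21bΔ4/Δ4 replicate 6, 27 of the 67 passed, 24 lower and 3 higher, against 9.29% and 10.3% of all genes. Replicate 2 was below every Phf21b+/+ mouse in 45 of the 67 and replicate 3 in 42, whereas replicate 6 was below in 8 and above in 26. The shares of all genes were 38.0%, 39.3%, and 31.9% below and, for replicate 6, 30.4% above.

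The 14 other genes of myelin and glial junctions had a median log2 change of -0.23, and 13 estimates were below 0. *Hapln2*, which encodes a link protein of the nodes of Ranvier, had 4.64, 4.57, and 10.2 CPM in Phf21bΔ4/Δ4 mice and 9.87, 10.4, and 9.21 CPM in Phf21b+/+ mice (log2 change -0.71 ± 0.31, limma FDR 0.227). Its genotypes overlapped through replicate 6. *Prr18* and the connexin gene *Gjc3* had log2 changes of -0.56 and -0.46. Without replicate 6 the estimates were -1.09 for *Hapln2* and -0.71 for *Gjc3*.

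All 10 genes of myelin lipid synthesis and metabolism had estimates below 0, with a median of -0.52. *Aspa*, which encodes the enzyme that frees acetate from N-acetylaspartate for lipid synthesis, had 17.0, 18.6, and 37.0 CPM in Phf21bΔ4/Δ4 mice and 34.0, 40.0, and 40.9 CPM in Phf21b+/+ mice (log2 change -0.75 ± 0.29, limma FDR 0.191). Only replicate 6 reached the Phf21b+/+ range. *Enpp2* (-2.22) and *Elovl7* (-0.77) had the largest estimates, but these rested on Phf21b+/+ replicate 7, with 7838 CPM of *Enpp2* against 224 to 814 in the other mice and 96.5 CPM of *Elovl7* against 19.2 to 26.1. Without it they were -0.87 and -0.07. That mouse also had the most reads of choroid plexus markers, which sum to 15913 CPM there and to 24 to 994 CPM in the others, and their part in these 2 estimates was not tested.

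Among 17 other genes of mature oligodendrocytes the median was -0.22. *Klk6*, a serine protease gene, had 0.337, 0.286, and 1.52 CPM in Phf21bΔ4/Δ4 mice and 2.7, 3.38, and 2.02 CPM in Phf21b+/+ mice (log2 change -2.31 ± 0.66, limma FDR 0.148). The genotypes did not overlap, at a low level where the counting floor of 3 reads is 0.127 to 0.143 CPM. On the log2(CPM + 1) scale its change was -1.17. *Ppp1r14a* (-0.58; -0.29 without replicate 2 and -0.90 without replicate 6) and *Evi2a* (-0.55) followed.

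Genes of newly formed oligodendrocytes went both ways. *Bcas1*, a marker of early myelinating cells, had 104, 110, and 245 CPM in Phf21bΔ4/Δ4 mice and 231, 254, and 322 CPM in Phf21b+/+ mice (log2 change -0.92 ± 0.33, limma FDR 0.179). *Gpr17*, a receptor gene of the step from precursor to immature oligodendrocyte, had 95.8, 99.5, and 74.3 CPM against 64.9, 60.5, and 61.8 CPM (log2 change 0.52 ± 0.12, limma FDR 0.133). *Bcas1* overlapped through replicate 6, and *Gpr17* did not overlap. *Kif19a*, the other of the 3 largest estimates among these 8 genes, had a log2 change of -0.87.

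The 9 other precursor genes were mixed in direction. Their median log2 change was -0.0093, with 4 estimates above 0 and 5 below. *Lhfpl3* had 32.4, 32.6, and 23.8 CPM in Phf21bΔ4/Δ4 mice and 40.2, 44.0, and 39.7 CPM in Phf21b+/+ mice (log2 change -0.49 ± 0.14, limma FDR 0.145), and *Cacng4*, which encodes a regulatory subunit of AMPA receptors, had a log2 change of -0.46 ± 0.11 (limma FDR 0.133). Both were lower in all 3 Phf21bΔ4/Δ4 mice than in any Phf21b+/+ mouse. *Pcdh15* had 16.4, 33.5, and 10.4 CPM against 11.8, 10.6, and 12.2 CPM, a log2 change of 0.63 that was 0.18 without replicate 3 and 1.02 without replicate 6.

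Of 9 other transcription factor genes of the lineage, 5 estimates were above 0 and 4 below. *Olig1*, the partner of *Olig2*, and *Myrf*, the myelin gene regulator, had log2 changes of 0.03 and 0.13 with all 6 mice, and both signs turned under other settings. *Nkx6-2* had -0.49 (-0.27 without replicate 2 and -0.84 without replicate 6) and *Zfp536* had -0.24, both with overlapping genotypes. *Myt1*, a zinc finger gene of precursors that neurons also use, had 19.1, 18.8, and 22.2 CPM in Phf21bΔ4/Δ4 mice and 28.4, 24.1, and 27.1 CPM in Phf21b+/+ mice (log2 change -0.41 ± 0.11, limma FDR 0.142) and did not overlap.

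Of 14 genes for ligands and receptors that act on the lineage, none passed the threshold and 3 of the 14 had an unadjusted p under 0.05 by limma, near the 23.6% of all genes. The genotypes did not overlap in 4 of the 14, against 31.0% of all genes. *Igf1*, a growth factor that favors myelination, had 9.62, 10.7, and 9.53 CPM in Phf21bΔ4/Δ4 mice and 6.98, 5.23, and 4.99 CPM in Phf21b+/+ mice (log2 change 0.81 ± 0.16, limma FDR 0.116). *Lingo1*, which restrains differentiation and is made by neurons too, had 173, 197, and 147 CPM against 116, 80.3, and 102 CPM (log2 change 0.80 ± 0.16, limma FDR 0.116). *Fgfr2*, an FGF receptor gene, had a log2 change of -0.56 ± 0.19 (limma FDR 0.169). The genotypes did not overlap in any of these 3, replicate 6 included.

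**Figure D4:**
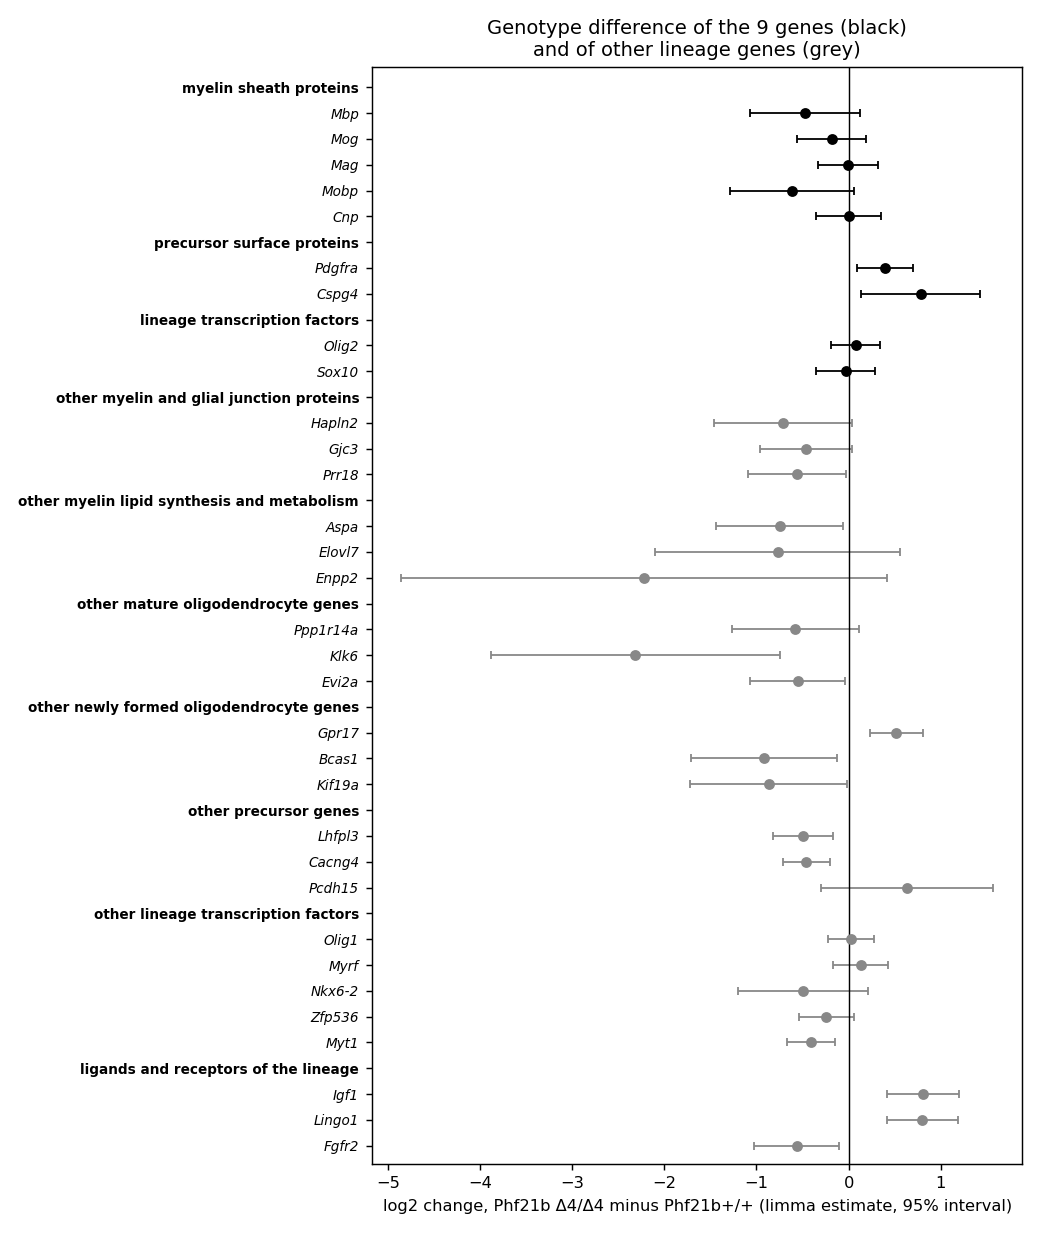
Log2 change (Phf21bΔ4/Δ4 minus Phf21b+/+) with its 95% limma interval for the 9 genes (black) and for the named genes of the wider lists (grey), grouped by role. Intervals of the sheath and transcription factor members include 0, those of *Pdgfra* and *Cspg4* lie above 0 before adjustment, and none of the genes plotted passed the threshold.

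Other cells and regions differed between these samples as well, and their part in the results above was not tested. All 12 endothelial and pericyte markers had estimates above 0, with 7 not overlapping against 15.0% of all genes in that direction, and summed to 296 to 436 CPM in Phf21bΔ4/Δ4 mice and 202 to 282 CPM in Phf21b+/+ mice. Among them the pericyte gene *Rgs5* had 153, 118, and 77.9 CPM against 75.5, 58.8, and 55.2 CPM, and *Pdgfrb* had 30.7, 26.6, and 24.3 CPM against 20.2, 17.9, and 15.2 CPM. Replicates 2 and 3 were the highest mice for both, as for *Cspg4*. The 6 markers of fibroblasts, cells that also carry *Pdgfra*, summed to 15.3 to 181 CPM and 38.2 to 46.0 CPM. Most of the sum in replicates 2 and 3 was *Dcn*, with 152 and 101 CPM against 3.0 CPM in replicate 6. The other 5 fibroblast markers had estimates below 0, and the median of the 6 was -0.37.

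The 6 dentate granule neuron markers summed to 175, 185, and 556 CPM in Phf21bΔ4/Δ4 mice and to 600 to 701 CPM in Phf21b+/+ mice, so replicates 2 and 3 were the lowest mice here as in the sheath genes. Replicate 6 was below every Phf21b+/+ mouse in 4 of these 6, against 31.9% of all genes, and in 0 of the 5 sheath genes. Of the 6, 4 were lower without overlap, against 16.0% of all genes, and 1 was called lower, against 0.663%. The 7 CA1 pyramidal markers summed to 996 to 1100 CPM and 409 to 455 CPM. Of these 7, 4 did not overlap, against 15.0% of all genes in that direction, and replicate 2 was above every Phf21b+/+ mouse in 4. The threshold was passed by 3 of the 7, all higher, against 0.553% of all genes. The 9 medial habenula markers, of a region outside the hippocampus, summed to 4.65 to 7.97 CPM and 148 to 205 CPM. All 9 were called lower, against 0.663% of all genes, and 4 of them had 3 reads or fewer in every Phf21bΔ4/Δ4 mouse. The paper had already listed genes of the dentate, CA1, and habenula lists, such as *Pdzd2*, *Fibcd1*, and *Chat*, as changed in these same mice. The lists were chosen with earlier results known, so their counts are a description and no separate support. The 10 thalamus markers, of a region rich in myelinated fibers, summed to 161 to 239 CPM and 449 to 694 CPM. Of these 10, 4 were lower without overlap, against 16.0% of all genes, and 1 was called lower. The pan-neuronal list had 8 of 8 estimates above 0, and the microglia list had a median log2 change of -0.088. The astrocyte list had a median of 0.10 with members in both directions, among them *Aqp4*, called lower (log2 change -0.68 ± 0.10, limma FDR 0.067), and *Gfap* (-0.70 ± 0.23, limma FDR 0.165), neither with overlapping genotypes. Of 6 Schwann cell genes only *Egr2* was among the listed genes, at 0.854 to 1.64 CPM.

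**Figure D5:**
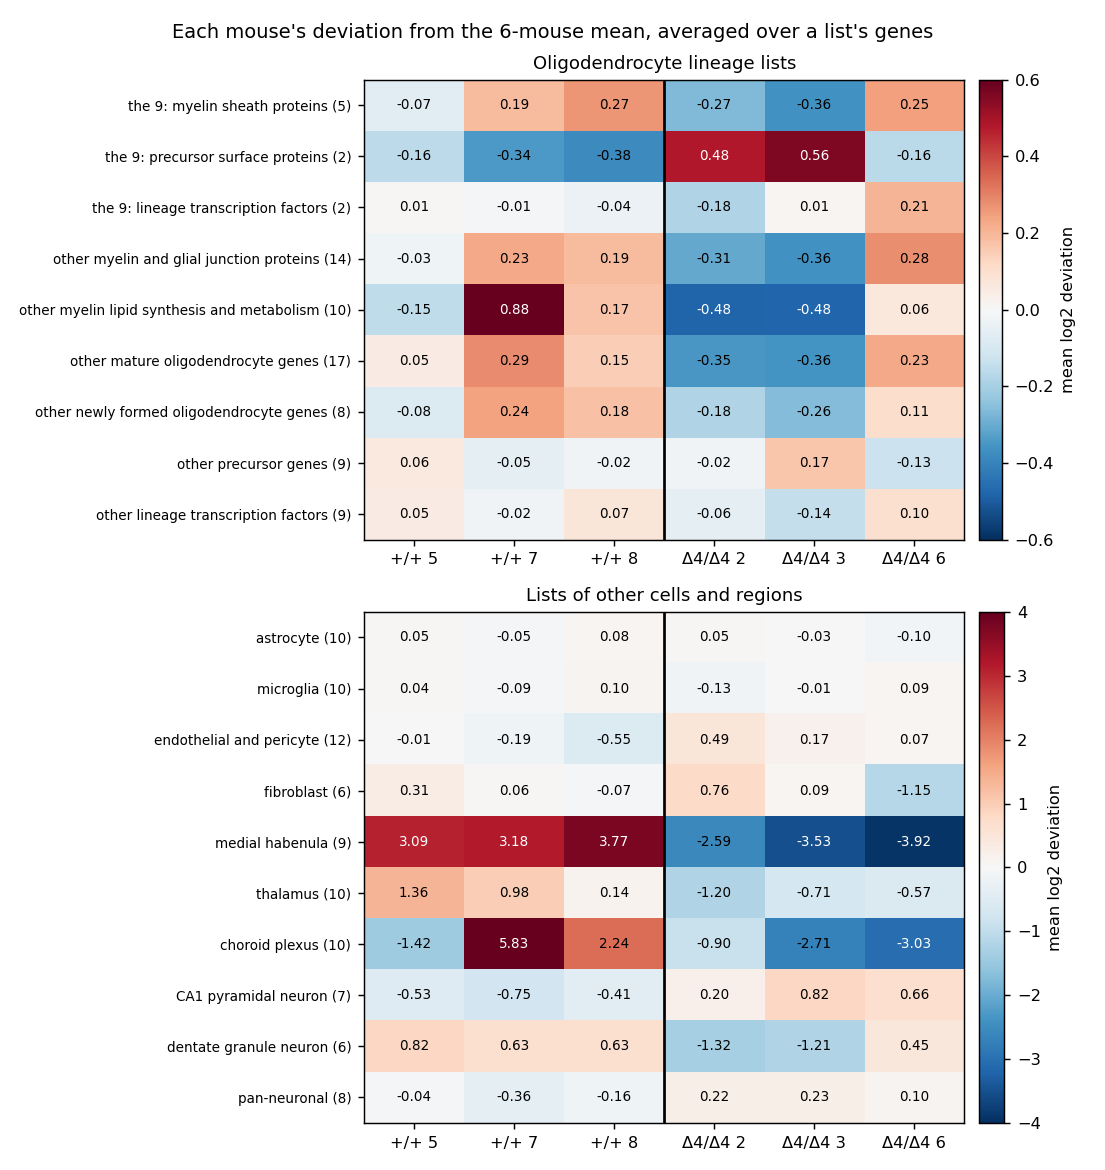
Mean log2 deviation of each mouse from the mean of the 6 mice, averaged over the genes of a list (number of genes in parentheses), for lineage lists (top) and for lists of other cells and regions (bottom, wider color scale). Phf21bΔ4/Δ4 replicates 2 and 3 are low in the sheath genes (-0.27 and -0.36) and in dentate granule markers (-1.32 and -1.21), and replicate 6 is positive in both (0.25 and 0.45). In the dentate granule markers replicate 6 is still below the Phf21b+/+ mice (0.82, 0.63, and 0.63).

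Likeness of pattern was measured by Pearson's r over the 6 mice with each of 12957 genes whose log2 CPM averaged at least 1, as a description. The genes closest to the mean of the 5 sheath genes were *Chst3* (0.994), *Vrk3* (0.992), *Mipep* (0.990), *Zfp873* (0.990), and *Fth1* (0.988), the last encoding the ferritin heavy chain. Those closest to the mean of *Pdgfra* and *Cspg4* were *Arfip2* (0.997), *Gapdh* (0.997), *Erbb4* (0.995), *Kcnn1* (0.995), and *Ciapin1* (0.995). Of 65 wider lineage genes compared, 15 (23.1%) had r above 0.9 with the sheath genes, against 2.43% of all genes, and 1 (1.54%) had r above 0.9 with the precursor pair, against 8.51%. The points are 6 mice of 2 genotypes, and 315 genes in all had r above 0.9 with the sheath genes.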

How the data were processed

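Hippocampal RNA of 3 mice per genotype was sequenced as ribosomal RNA-depleted libraries. The authors deposited log2 CPM for 14477 genes. Reads had been trimmed with Trimmomatic (0.39), mapped to GRCm38 with STAR (2.7.3a), and counted with featureCounts (Subread 1.6.4). Genes reaching a CPM of 1 in 2 or more samples were retained, and the authors normalized them with edgeR. This filter kept all 9 genes.

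Reads and CPM were recovered from the values (100% whole within 0.1 reads). Samples were grouped by their labels and treated as separate mice, and the labels do not give the litter of each mouse. Genotypes were compared with limma 3.58.1 in R 4.3.3 (lmFit, eBayes with trend), 2-sided, with Benjamini-Hochberg adjustment over all genes and thresholds of FDR 0.1 and 1.3-fold, after the script was tested on simulated data. Single values were tested by exact permutation. Coordinates are GENCODE on GRCm38, and 98.6% of symbols matched once.

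The 9 genes and all lists were chosen with earlier results of these data known. Beside the 9 genes, *Phf21b*, *Myrf*, and *Olig1*, the rule named the 3 largest log2 changes of each wider list without calls, 5 genes most like each of 2 profiles, and the most abundant and near-absent markers of other cells. An item that the rule also named is not reported here.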

Additional observations from a re-analysis of the deposited data

How the results depend on the processing

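No paired analysis was possible because the labels do not link mice of 1 genotype to mice of the other, by litter or otherwise. With all 6 mice, 0 of the 9 genes and 0 of the 67 wider lineage genes were called by limma, and 176 of all genes were (80 higher, 96 lower). The arrayWeights fit called 4 of the 9 (2 higher, 2 lower), 24 of the 67 (1 higher, 23 lower), and 3549 of all genes (1483 higher, 2066 lower). Leaving out 1 mouse gave 0 to 4 of the 9, 0 to 27 of the 67, and 9 to 2830 of all genes, the highest in each case without Phf21bΔ4/Δ4 replicate 6. For all genes it gave 28 without Phf21bΔ4/Δ4 replicate 2, 45 without replicate 3, and 27, 14, and 9 without Phf21b+/+ replicates 5, 7, and 8. The cause was not tested. No other alternative called any of the 9 or the 67. All genes called were 101 at a mean log2 CPM of at least 1 (55 higher, 46 lower), 75 with the same prior variance (13 higher, 62 lower), 25 at FDR under 0.05 (5 higher, 20 lower), and 131 with voom. Another scaling moved the split to 104 higher and 94 lower when mice were centered on their median and to 61 higher and 95 lower under quantile normalization. The median change of all genes was 0.030 and 0.019 in these fits. The median of the 9 moved from -0.0076 to -0.19 under quantile normalization and from -0.15 to 0.029 on leaving out 1 mouse.

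Directions turned only in genes with estimates near 0. *Mag* was 0.042 after centering and -0.15 to 0.12 on leaving out 1 mouse. *Cnp* was -0.040 with arrayWeights, -0.28 under quantile normalization, -0.00026 with voom, and -0.14 to 0.12 on leaving out 1 mouse. *Sox10* was 0.019 after centering and -0.17 to 0.064 on leaving out 1 mouse. *Olig2* was -0.017, *Myrf* -0.079, and *Olig1* -0.12 with arrayWeights, and *Olig1* was -0.052 under quantile normalization and -0.055 to 0.12 on leaving out 1 mouse. The edgeR quasi-likelihood test on recovered reads was planned and not run, and limma with voom was run on those reads instead. With 3 mice per genotype, the intervals printed for *Mbp* and *Mobp* leave both no change and a change of 1 on the log2 scale within reach.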
